A study of Homo sapiens with 18 samples.

Results

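The subunits of the oxidative phosphorylation system are the proteins that build the electron transport chain and the ATP synthase of the inner mitochondrial membrane. They were taken here as the probe sets annotated to exactly 1 gene whose symbol starts with NDUFA, NDUFB, NDUFC, NDUFS, NDUFV, SDHA to SDHD, UQCR, CYC1, COX4 to COX8 or ATP5. Assembly factors, antisense genes and pseudogenes with such symbols were left out. The rule found 100 probe sets of 67 nuclear genes, among 22283 probe sets and 11963 genes with a probe set of their own. Complex I had 28 genes, complex II had 3, complex III had 7, complex IV had 13 and complex V had 16. A level filter, which kept the upper 60% of genes by mean log2 signal over the 18 arrays, passed 66 of the 67. The exception was COX7A1, the heart and skeletal muscle form of a small complex IV subunit, which was above background on 1 of the 18 arrays. The genes now called COXFA4 and COXFA4L2, once named as NDUFA members, were not members by their current symbols and are given beside them.

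RNA was measured with Affymetrix oligonucleotide arrays in SH-SY5Y, an established neuroblastoma line of human origin used as a model of noradrenergic neurons. Cells were exposed to sarin, an organophosphate nerve agent that inhibits acetylcholinesterase, at 5 ppm, and were collected at 3, 24 or 48 h. Untreated cells of the same line were collected at the same times as controls. Each of the 6 groups had 3 arrays. The labels name 6 flasks per group, so each p-value rests on the scatter among these arrays, which can be purely technical. All groups share 1 tumour-derived line, and bulk RNA cannot tell fewer cells from less RNA per cell.

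Complex I passes electrons from NADH to ubiquinone, and complex II passes them from succinate to the same carrier. Complex III hands them on to cytochrome c, complex IV gives them to oxygen, and the proton gradient built by complexes I, III and IV drives ATP synthesis in complex V. Complexes I, III, IV and V also hold subunits encoded in mitochondrial DNA, while every member described here is encoded in the nucleus and imported. Neurons draw most of their ATP from this system.

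The nuclear subunit genes lay on 22 chromosomes and are known to be read from short promoters in which sites for NRF1, ETS factors such as GABP, and YY1 recur. Promoter windows of 300 bases, from RefSeq on GRCh38.p14, were found for 58 of the members and searched on both strands. The palindromic NRF1 motif was in 13 member windows (22.4%), against 5.78% of 35116 promoter windows. The ETS letters CCGGAAG were in 17 (29.3%), against 10.3%. The YY1 letters AANATGGCG were in 13 (22.4%), against 3.19%. At least 1 of these 3 was in 33 member windows (56.9%), against 17.1% of the promoter windows. These are matches of letters and not binding sites. The 35116 promoter windows outnumber the 11963 genes with a probe set of their own, so they are not a set matched to the members. The differences between these shares were not tested.

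The 4 stretches below give the 200 bases before the annotated start of genes that the results turn on, with ETS letters in capitals. NDUFS3 (chr11:47578874-47579073, plus strand) and COX5B (chr2:97645862-97646061, plus strand) were higher with sarin at 24 h, as was ATP5PB (chr1:111449264-111449463, plus strand). COX6A2 (chr16:31428361-31428560, minus strand), the heart and muscle form of a complex IV subunit, was higher at 48 h, alone among the 66 members tested. With arrays scaled to the spike-ins it was at -0.31, and under quantile normalization 6 members had a change above 0. The NDUFS3 stretch holds the ETS letters on both strands, the COX5B stretch holds them on 1 strand, and neither ATP5PB nor COX6A2 holds any of the 3 motifs in its window.
NDUFS3: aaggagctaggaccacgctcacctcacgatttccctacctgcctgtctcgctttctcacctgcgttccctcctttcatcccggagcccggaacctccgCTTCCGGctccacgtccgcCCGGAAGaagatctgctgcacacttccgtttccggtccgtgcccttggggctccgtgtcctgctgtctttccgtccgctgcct
COX5B: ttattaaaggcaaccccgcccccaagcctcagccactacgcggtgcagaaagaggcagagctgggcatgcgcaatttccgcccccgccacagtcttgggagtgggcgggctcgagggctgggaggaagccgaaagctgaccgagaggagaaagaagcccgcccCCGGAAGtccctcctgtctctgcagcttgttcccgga
ATP5PB: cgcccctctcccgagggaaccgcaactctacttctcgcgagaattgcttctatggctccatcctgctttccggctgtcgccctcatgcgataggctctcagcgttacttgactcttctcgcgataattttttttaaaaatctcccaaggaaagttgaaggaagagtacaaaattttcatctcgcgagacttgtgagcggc
COX6A2: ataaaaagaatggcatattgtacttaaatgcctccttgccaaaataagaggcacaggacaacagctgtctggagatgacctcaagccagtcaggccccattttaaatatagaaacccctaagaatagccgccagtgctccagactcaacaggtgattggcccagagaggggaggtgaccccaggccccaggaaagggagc

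The 17 members with ETS letters had a median log2 change of 0.11 at 24 h and -1.65 at 48 h, and the 41 without had 0.11 and -1.66. The 13 with NRF1 letters had medians of 0.06 and -1.39, and the 45 without had 0.15 and -1.66. Of the 6 members higher at 24 h, 3 had ETS letters, 1 had YY1 letters and 0 had NRF1 letters in the window. These medians are a description, with no test.

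Signals are the authors' MAS5 values on a linear scale, and log2 changes are sarin over control on log2(signal + 16), which understates the change of dim genes. A gene was called when limma's moderated test over all genes tested gave a Benjamini-Hochberg adjusted p under 0.05. The 3 sarin arrays at 48 h differed from all others in quality. Their GAPDH 3′ over 5′ ratio, a measure of RNA integrity, was 2.15 to 2.3, against 0.696 to 1.17, and their median signal was 534.5 to 551.6, against 290.2 to 413.9. Their limit of background, set from 27 unspiked bacterial probe sets, was 410.7 to 443.2, against 97.04 to 182.9. They correlated with the other arrays at 0.665 to 0.758, while those correlated among themselves at 0.909 to 0.965. The same ratio for ACTB was 3.68 to 4.67 on the 48 h sarin arrays, against 0.79 to 1.64. Their geometric mean signal of 18 hybridisation spike-in probe sets was 9504 to 12710, against 1264 to 3981. At 24 h the GAPDH ratio was 1.05 to 1.17 on sarin arrays and 0.811 to 0.941 on control arrays. The spike-in mean at 24 h was 2358 to 2728 on sarin arrays and 1866 to 3981 on control arrays. The noradrenergic genes DBH, PHOX2A and GATA2 were above background on all 18 arrays, and TH, the rate-limiting enzyme of catecholamine synthesis, on 0 of 18. The glial gene S100B was also above background on 0 of 18.

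After 3 h of sarin, 0 of the 66 members passed the test, as did 0.0% of all genes tested in either direction. At an unadjusted p under 0.05 there were 8 members and 747 genes in all. The median log2 change was -0.03 over the members and -0.01 over all genes. UQCRC2, a core protein of complex III, was at 3228, 2957.2 and 3867.1 on the sarin arrays, against 2865.7, 2229.7 and 2335.9 on the control arrays. Its arrays did not overlap, and its log2 change was 0.43 ± 0.14 (SE, n = 3 arrays per group) with an adjusted p of 0.339. ATP5PF, coupling factor 6 of the ATP synthase stalk, was at 5033.2, 4748.4 and 4585.3 on the sarin arrays, against 6639.9, 7288.5 and 5371 on the control arrays. Its log2 change was -0.41 ± 0.13 with an adjusted p of 0.321. In all, 6 members lay above and 3 below their controls on every array, while this held for 7.13% and 6.95% of all genes.

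By complex, the medians at 3 h were -0.07 for complex I, -0.06 for complex II, 0.13 for complex III, -0.06 for complex IV (0.02 under quantile normalization) and 0.04 for complex V. The most extreme values were COX6A2 at -0.43 ± 0.27 and ATP5F1D, the delta subunit of the synthase head, at 0.45 ± 0.21, with adjusted p-values of 0.613 and 0.468. The subunits that carry the first redox steps of complex I had values near 0, with NDUFV1, which binds NADH, at 0.13 ± 0.17 and the iron-sulfur subunit NDUFS1 at 0.01 ± 0.24. In complex II, SDHA, the succinate-oxidising flavoprotein, was at -0.08 ± 0.30, and the membrane anchors SDHC and SDHD were at 0.00 ± 0.16 and -0.06 ± 0.27.

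**Figure D1:**
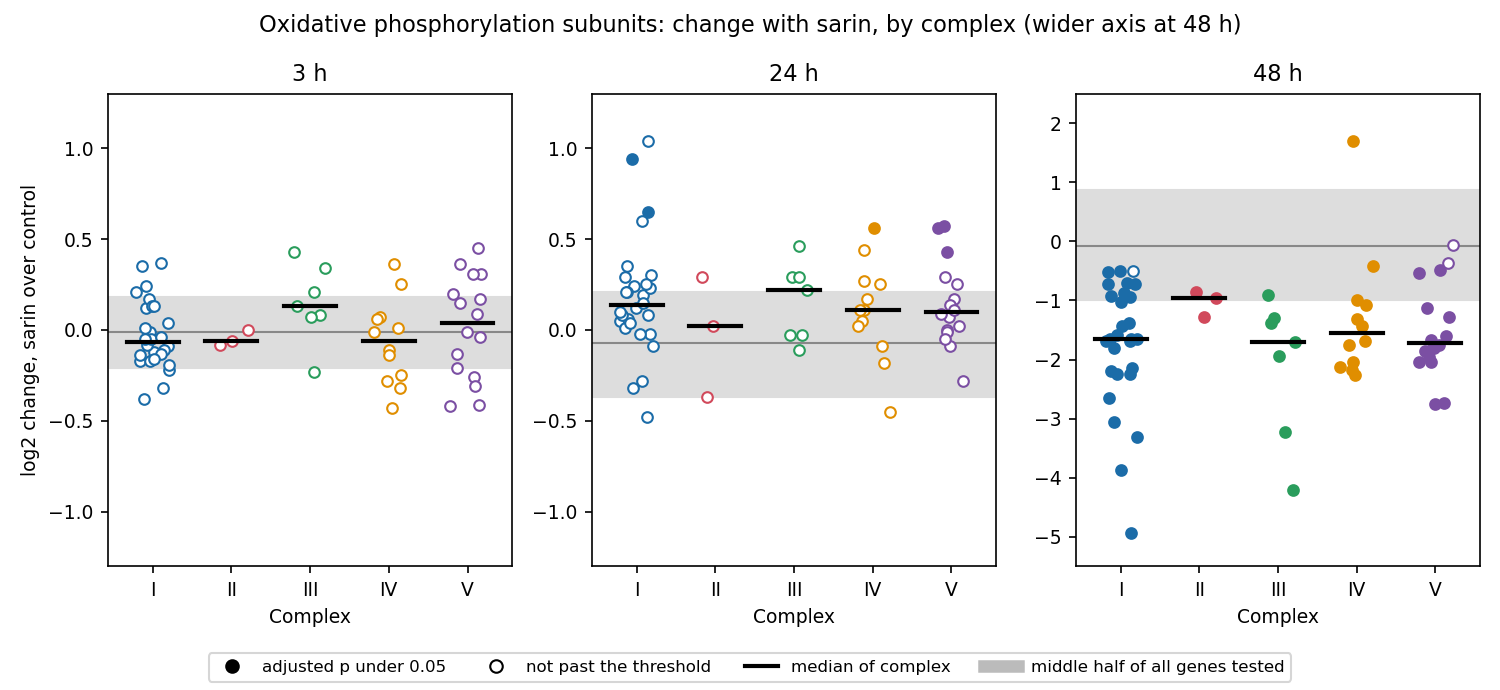
Log2 change of sarin over control (y axis, wider range at 48 h) for each tested member, 1 point per gene, by complex (x axis) at 3, 24 and 48 h; bars are the complex medians, the grey line is the median and the band the middle range of all genes tested. Points lie around 0 at 3 h, 6 are filled as higher at 24 h, and at 48 h all but COX6A2 lie below 0. With arrays scaled to the spike-ins COX6A2 was at -0.31, and under quantile normalization 6 members, COX7A2L (0.35) among them, were above 0.

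After 24 h of sarin, 6 members were higher and 0 lower than control, while 4.11% of all genes were higher and 4.56% lower. The members are among the brightest probe sets, with 39 of 66 in the brightest 718 genes, and among those 10% were higher. All 6 called members were among those 39. By complex, 2 of 28 in complex I, 0 of 3 in complex II, 0 of 7 in complex III, 1 of 12 in complex IV and 3 of 16 in complex V were higher. The complex medians were 0.13, 0.02, 0.22, 0.11 and 0.10 for complexes I to V, and under quantile normalization those of complexes II, IV and V were -0.09, -0.02 and -0.04. The median log2 change was 0.11 over the members and -0.07 over all genes, and 48 of 66 members had a change above 0, against 43.9% of all genes. Under quantile normalization that median was 0.01 with 33 members above 0, where the median of all genes was -0.02. With arrays centred on their medians it was 0.41 with 62 above 0, where the median of all genes was 0.23. Without such scaling the 718 brightest genes had a median of 0.13, with 480 above 0. The 39 members among them had 0.17, with 31 above 0.

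NDUFS3 is a core subunit in the matrix arm of complex I, next to the chain of iron-sulfur clusters that leads electrons to ubiquinone. Its signal was 6418.1, 5738.9 and 7370.6 on the sarin arrays at 24 h, against 3330.9, 3392 and 3349.2 on the control arrays. The sarin arrays were also above the control arrays of the other times, of which the highest was 4950.8 at 3 h. The log2 change was 0.94 ± 0.15 (SE, n = 3 arrays per group), with an adjusted p of 0.000817. It was past the threshold in 20 of 21 alternatives, the exception being scaling to the spike-ins, at 0.98 with an adjusted p of 0.155.

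NDUFB11, an accessory subunit of the membrane arm of complex I encoded on the X chromosome, was at 4768.5, 4665.9 and 5162.5 on the sarin arrays, against 3441.3, 2834.2 and 3050.9 on the control arrays. The groups did not overlap at 24 h, but the control arrays of 3 h reached 5672.6 and those of 48 h reached 4529.1. The log2 change was 0.65 ± 0.20 with an adjusted p of 0.0456. Against the 3 and 48 h controls together it was 0.26, with an adjusted p of 0.369.

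The 3 complex V genes that were higher all encode parts of its membrane sector or stalk. ATP5PB, subunit b of the peripheral stalk that holds the head still, was at 8747.2, 8856.4 and 9592.7 on the sarin arrays, against 6624.7, 6173.5 and 5512.4 on the control arrays. Its log2 change was 0.57 ± 0.14 with an adjusted p of 0.0154. ATP5PB was above every control array of the other times, which reached 7641.6.

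ATP5MG, subunit g at the membrane interface of the synthase dimer, was at 15383.5, 13633.7 and 14289.2 on the sarin arrays, against 11731.9, 8543.8 and 9299.7 on the control arrays. The change was 0.56 ± 0.17 with an adjusted p of 0.0432. Its probe set is of a kind that can share probes with related sequences, so signal from near-identical copies cannot be told apart. Sets of this kind were used for 7 members, which are ATP5MG, SDHA, SDHC, COX4I1, COX7C, ATP5F1C and ATP5ME. SDHA had only 1 probe set. ATP5MG also had 2 other bright probe sets, at 0.61 (adjusted p = 0.0291) and 0.82 (adjusted p = 0.0113) when each set was tested alone, and a dim one at -0.02. In the same fit the set used here had an adjusted p of 0.0749.

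ATP5MC2, ATP5MC1 and ATP5MC3 all encode the same mature c subunit of the proton-driven ring. Of these, ATP5MC2 was at 8269, 7861.2 and 7102.2 on the sarin arrays, against 6426.1, 5191.1 and 5680.2 on the control arrays, a log2 change of 0.43 ± 0.13 with an adjusted p of 0.0476. The sarin arrays of 24 h overlapped the ATP5MC2 control arrays of the other times, which reached 7874.8 at 3 h and 7345.8 at 48 h. The ATP5MC2 call held in 8 of 21 alternatives. ATP5MC1 was at 0.02 ± 0.23 and ATP5MC3 at 0.14 ± 0.13, with adjusted p-values of 0.962 and 0.53. The differences between the 3 genes were not tested.

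COX5B, a nuclear-encoded complex IV subunit on the matrix side, was at 12052.3, 12364 and 11832.2 on the sarin arrays, against 10064, 7179.6 and 7599.8 on the control arrays. Its log2 change was 0.56 ± 0.17 with an adjusted p of 0.0482. Sarin arrays at 3 h were at 10266, 12564.1 and 11548.5 and overlapped those of 24 h. The sarin arrays of 24 h also overlapped the control arrays of 48 h, of which 1 was at 12083.5. With each set tested alone, other bright COX5B sets were at 0.49 (adjusted p = 0.112) and 0.41 (adjusted p = 0.33). A dim COX5B set was at -0.05 (adjusted p = 0.974).

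**Figure D2:**
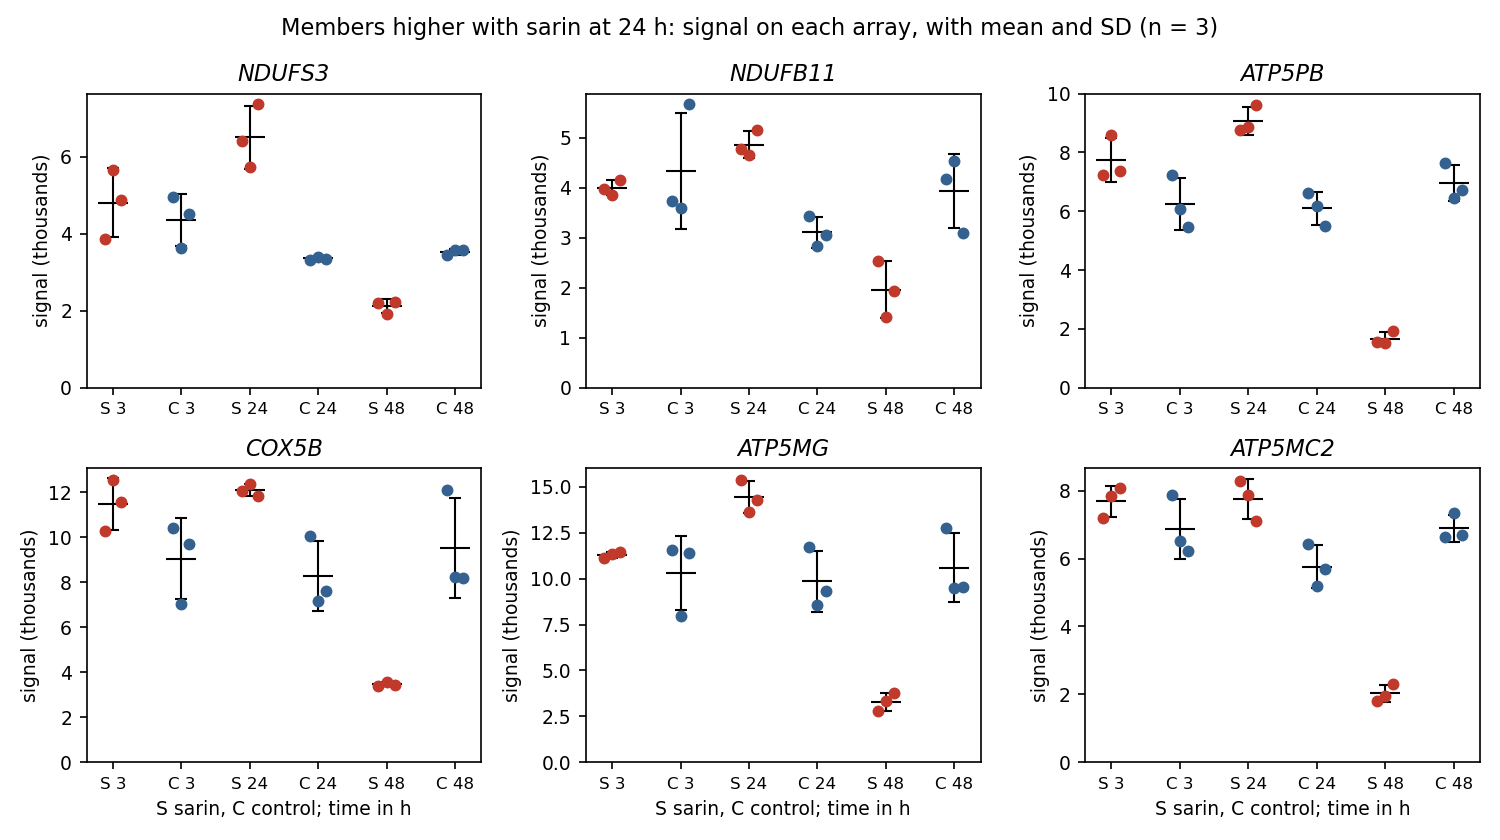
Signal divided by 1000 (y axis, from 0) of the 6 members higher with sarin at 24 h, 1 point per array with the mean and SD (n = 3), for sarin (S) and control (C) at 3, 24 and 48 h (x axis). In each panel the 24 h sarin points lie above the 24 h control points, and the 48 h sarin points lie lowest of the 6 groups.

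Several other members were close to the threshold at 24 h. COX6B1, a complex IV subunit on the cytochrome c side, was at 8389, 8594.8 and 8016.1 on the sarin arrays, against 6017.9, 5813.5 and 6535.1 on the control arrays, a log2 change of 0.44 ± 0.14 with an adjusted p of 0.0528. UQCRB, a ubiquinone-binding subunit of complex III, was at 0.46 ± 0.15 with an adjusted p of 0.0678. With each set tested alone, another bright UQCRB set was at 0.88 (adjusted p = 0.041) and a dim one at 0.49 (adjusted p = 0.269). In the same fit the UQCRB set used here had an adjusted p of 0.11. NDUFC1, a small accessory subunit of complex I, had the largest change, 1.04 ± 0.41, with an adjusted p of 0.112. Its arrays did not overlap, at 7192.1, 5740.8 and 5646.3 with sarin, against 3582, 2784.8 and 2659.7 without.

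NDUFA13, a complex I accessory subunit also known as GRIM-19, had the lowest value at 24 h. It was at 6853.2, 6544.6 and 7005.4 on the sarin arrays, against 9339.6, 10659.6 and 8598.9 on the control arrays, a log2 change of -0.48 ± 0.16 with an adjusted p of 0.0616. The arrays did not overlap. Over all members 17 lay above and 5 below their controls on every array, while this held for 17.2% and 23.2% of all genes. Among the 718 brightest genes 236 lay above and 103 below, and among the 39 members there 13 and 2. Complex II was at 0.02 for SDHC, 0.29 for SDHD and -0.37 for SDHA, and none of these passed.

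The number of calls at 24 h depended on single arrays. It was 1 or 2 without any of control replicate 2, control replicate 3 or sarin replicates 1, 2 and 3, and 5 without control replicate 1, and NDUFS3 passed in each of these fits. The count was 0 with spike-in scaling and 21 with arrays centred on their medians. With each probe set tested alone and no level filter, 5 of the 100 sets were higher. In that fit the sets used for NDUFB11, COX5B and ATP5MC2 had adjusted p-values of 0.077, 0.0819 and 0.0786. Against the 3 and 48 h controls together, 4 members were higher and 4 lower, with a member median of 0.00. In a fit that left out the 48 h sarin arrays and had each array's GAPDH ratio as a covariate, 5 members were higher and 2 lower.

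In the test of the difference of differences 0 members passed, against 0.39% of all genes higher and 0.446% lower, and 7 members and 911 genes in all had an unadjusted p under 0.05. Without control replicate 2 or control replicate 3 of 3 h, 1 member passed. NDUFS3 was closest, at 0.81 ± 0.21 with an adjusted p of 0.0795. ATP5PF followed at 0.70 ± 0.18 with an adjusted p of 0.0854, with a log2 change of 0.29 at 24 h and -0.41 at 3 h.

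**Figure D3:**
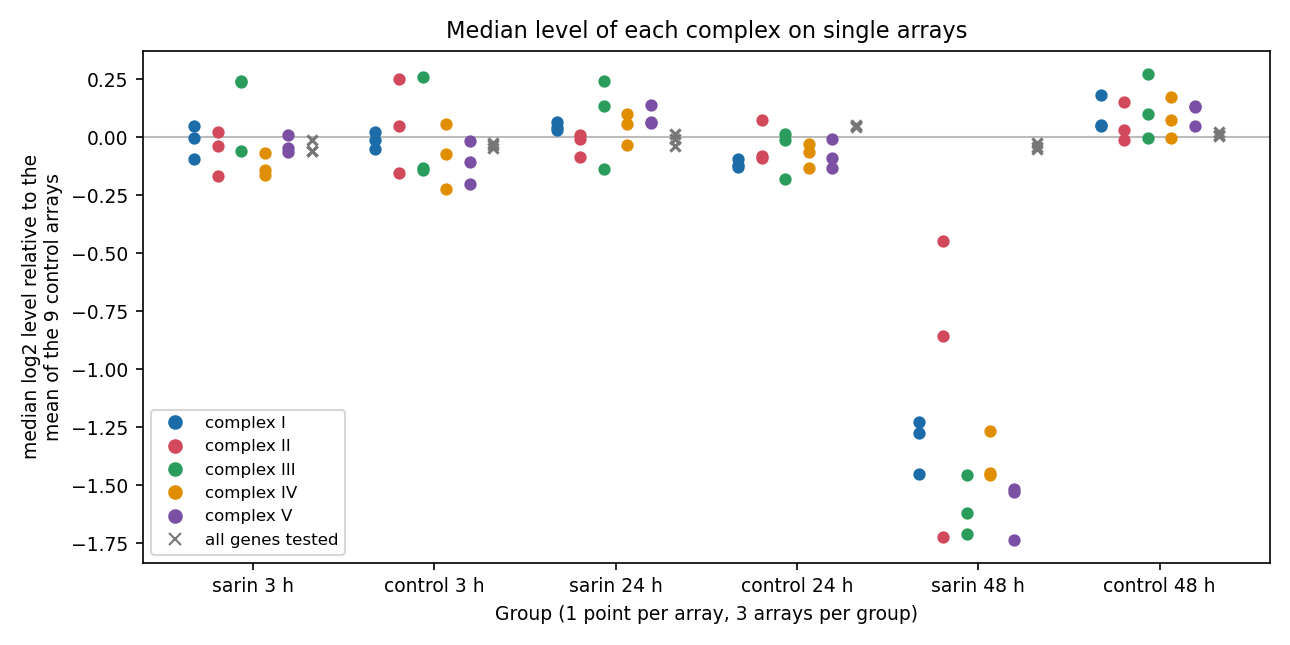
Median log2 level of the members of each complex on single arrays (y axis), relative to the mean of the 9 control arrays, for the 6 groups (x axis, 3 arrays each); crosses are the median of all genes tested. Over all members the 24 h sarin arrays were at 0.047 to 0.053, the 24 h control arrays at -0.137 to -0.066, and the 48 h sarin arrays at -1.433 to -1.392.

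After 48 h of sarin most of the system was lower. Of 66 members 62 were lower and 1 higher, while 37.8% of all genes were lower and 32.9% higher, and under quantile normalization the members' counts were 58 and 4. The members' median log2 change was -1.65, against -0.08 over all genes, and 47 members were lower by 1 or more on the log2 scale. Among the 718 brightest genes 81.2% of all genes were lower, with a median of -1.14, and 38 of the 39 members among them were lower, with a median of -1.67. All 3 sarin arrays of this time carried the RNA quality and signal values given above, so sarin and those array properties cannot be told apart at 48 h. Scaling to the spike-ins moved the median of all genes to -2.08 and that of the members to -3.65.

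The medians were close for complexes I, III, IV and V, at -1.65, -1.70, -1.56 and -1.72. Complex II had -0.96, from only 3 genes. All but 1 of 28 members were lower in complex I, all in complexes II and III, 11 of 12 in complex IV and 14 of 16 in complex V. No difference between complexes was tested. Tests of the difference between times called 55 members lower and 1 higher at 48 h relative to 3 h (32.6% and 27.2% of all genes), and 59 lower and 1 higher relative to 24 h (33.2% and 30.5%). Of the 718 brightest genes 71.7% were lower relative to 3 h and 77.9% relative to 24 h. The 39 members there had 34 and 37 lower. The 6 members that were higher at 24 h were all lower at 48 h, NDUFS3 by a log2 change of -0.73 ± 0.15 (adjusted p = 0.000215) and ATP5PB by -2.05 ± 0.14 (adjusted p = 2.5e-10).

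NDUFA13 was among the members lowest relative to control. It was at 396.6, 248.8 and 394.3 on the sarin arrays at 48 h, against 9992.2, 11741.9 and 10703.2 on the control arrays, and was above background on 0 of the 3 sarin arrays. This gives a level at least 24.7-fold lower, with an adjusted p of 1.12e-14. A probe set that was above background on none of the sarin arrays has only such a bound, taken against the background limit of each array.

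UQCRC1, the other core protein of complex III, was likewise at 210.9, 169.5 and 288 on the sarin arrays, against 4957.7, 4262.7 and 3833.2 on the control arrays, which is at least 9.91-fold lower (adjusted p = 3.48e-12). Its partner UQCRC2 was at 1716.6, 2066.8 and 1914.5 with sarin, against 4003.9, 3598.9 and 3194.2 without, a log2 change of -0.91 ± 0.14 with an adjusted p of 1.62e-05. CYC1, the heme-bearing cytochrome c1 of the same complex, was at 120.3, 446.6 and 662.1 on the sarin arrays, against 3369.9, 3453.9 and 2978.7 on the control arrays. It was above background on 2 of the 3 sarin arrays, with a log2 change of -3.23 ± 0.36 and an adjusted p of 2.15e-07. Another UQCRC2 probe set was at -2.27 (adjusted p = 1.59e-09) when each set was tested alone. The difference between UQCRC1 and UQCRC2 was not tested.

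In complex I the accessory subunits NDUFA7 and NDUFB7 were also above background on 0 of the 3 sarin arrays. NDUFA7 was at 60.5, 57.2 and 62.6 with sarin, against 967.6, 1255.5 and 1094 without, at least 2.55-fold lower (adjusted p = 9.75e-10). NDUFB7 was at 67.9, 85 and 70.4 with sarin, against 1128.1, 812.6 and 739.5 without, at least 2.04-fold lower (adjusted p = 4.52e-10). For both genes every sarin array lay below every control array.

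Among accessory subunits that stayed above background, NDUFB6 was at 973.2, 604.4 and 704.1 with sarin, against 4950.9, 4783.8 and 4613.2 without, a log2 change of -2.65 ± 0.19 (adjusted p = 5.79e-10). NDUFB4 and NDUFB8 were both at -2.24, with adjusted p-values of 2.32e-10 and 3.35e-07. Another bright NDUFB8 set was at -1.08 (adjusted p = 2.5e-05) when each set was tested alone. NDUFC1 was uneven, at 1465.3, 304.7 and 295.1 with sarin, against 6428.8, 3593.5 and 3705.1 without, and was above background on 1 sarin array. Its log2 change was -3.06 ± 0.41 with an adjusted p of 2.12e-06.

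Core subunits of complex I carry the redox cofactors. NDUFV2, an iron-sulfur subunit of the NADH-oxidising module, was at -2.14 ± 0.20, and its partner NDUFV1 at -0.92 ± 0.17, with adjusted p-values of 1.66e-08 and 7.88e-05. NDUFS1, the largest iron-sulfur subunit, was at 981, 904.3 and 1538.6 with sarin, against 1415.5, 1789.4 and 1541 without. The highest sarin array lay above the lowest control array, and the change of -0.50 ± 0.24 did not pass (adjusted p = 0.0703).

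In complex II, SDHC was at 1710, 2759.9 and 2269.8 with sarin, against 4582.2, 4216.7 and 4090.8 without, a log2 change of -0.96 ± 0.16 (adjusted p = 2.41e-05). SDHD was at 314.7, 1054.5 and 496.9 with sarin, against 1328.5, 1420.7 and 1339.1 without, a change of -1.28 ± 0.27 (adjusted p = 0.000337). SDHA was at 320.2, 796 and 689 with sarin, against 1558.5, 917.5 and 759.6 without, with overlapping arrays and a change of -0.86 ± 0.30 (adjusted p = 0.0174). For SDHA and SDHD 2 of the 3 sarin arrays were above background.

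In complex V the lowest values were those of a stalk and a membrane subunit. ATP5PO, the protein that joins the stalk to the head, was at 1527.1, 954.3 and 1073.6 with sarin, against 7901.8, 8530.1 and 7286 without, a log2 change of -2.75 ± 0.15 (adjusted p = 2e-11). ATP5MJ, a small proteolipid of the membrane sector, was at 1765.9, 2942.7 and 1639.9 with sarin, against 14277.5, 13681.6 and 13213.6 without, a change of -2.74 ± 0.20 (adjusted p = 1.05e-09). Other probe sets of these 2 genes gave smaller changes when each set was tested alone. That of ATP5PO was at -0.04 (adjusted p = 0.891) and that of ATP5MJ at -0.70 (adjusted p = 0.000927). In the catalytic head, ATP5F1A (alpha) was at -1.85 ± 0.15 and ATP5F1B (beta) at -1.28 ± 0.19, both past the threshold. ATP5IF1, which blocks the synthase from running in reverse, was at -1.12 ± 0.17 (adjusted p = 8.47e-06).

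ATP5F1E, the epsilon subunit of the head, was the clearest member without a call. Its signal was 11792.5, 11086.7 and 8884.2 with sarin, against 13057.9, 10554.9 and 9825.5 without, and the arrays overlapped. The log2 change was -0.07 ± 0.15 with an adjusted p of 0.677. It was also the 1 member of the 39 among the brightest genes that was not called lower. The neighbouring gamma subunit ATP5F1C was at -0.54 ± 0.13 (adjusted p = 0.00123) and ATP5ME, subunit e, at -0.49 ± 0.16 (adjusted p = 0.0111). With each set tested alone, other bright sets were at -0.97 and -1.05 for ATP5F1C, and the other ATP5ME set was at -0.96.

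Of the c subunit genes at 48 h, ATP5MC2 was at -1.76 ± 0.13 and ATP5MC3 at -1.61 ± 0.13, both past the threshold. ATP5MC1 was at 963.2, 1661.6 and 2112.4 with sarin, against 1843.7, 2296.5 and 1745.4 without, a change of -0.37 ± 0.23 with an adjusted p of 0.149. These differences between genes were not tested, and the 3 genes are read by different probes.

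Complex IV holds pairs of subunits with a common and a muscle form. COX6A1, the common form, was at 6234.5, 6183 and 4304.4 with sarin, against 28637.8, 21676.1 and 19299.2 without, a log2 change of -2.05 ± 0.28 (adjusted p = 3.48e-06). COX6A2, its muscle form, was at 1514.3, 1174.3 and 1383.8 with sarin, against 572.9, 290 and 392.7 without, a change of 1.70 ± 0.27 (adjusted p = 1.73e-05) that was -0.31 (adjusted p = 0.437) with arrays scaled to the spike-ins. Among the 718 genes of the signal range that holds COX6A2, 54.3% were higher at 48 h, with a median of 0.80.

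COX7A2, the common form of the next subunit, was at -1.31 ± 0.14 (adjusted p = 1.06e-07). COX7A2L, a relative that joins complexes III and IV into supercomplexes, was at 4307.7, 4664 and 5265.6 with sarin, against 6054.7, 6282.7 and 6540.5 without, a change of -0.41 ± 0.13 (adjusted p = 0.00874) that was 0.35 (adjusted p = 0.0197) under quantile normalization. The muscle form COX7A1 was below the level filter. It was at 202.3, 416.4 and 299.9 with sarin, of which 1 array was above background, against 38.4, 88.7 and 38.3 without, of which 0 were. The background limit of the same sarin arrays was 410.7 to 443.2, so no fold is given.

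COX8A was the lowest of complex IV, at 3287.2, 3273.9 and 3612.1 with sarin, against 18250.3, 15583 and 15265.2 without, a change of -2.26 ± 0.14 (adjusted p = 8.29e-11). COX4I1, the common form of the largest nuclear-encoded subunit, was at -1.08 ± 0.16 (adjusted p = 7.38e-06). COXFA4, now placed with complex IV, was at -1.90 ± 0.12 (adjusted p = 9.44e-11), and at 0.10 ± 0.12 and 0.05 ± 0.12 at 3 and 24 h. COXFA4L2 did not pass the level filter. At 24 h it was at 45.7, 122.2 and 20.5 with sarin, of which 1 array was above background, against 184.8, 265.7 and 193.9 without, a log2 change of -1.75 ± 0.47 (adjusted p = 0.0402 with no level filter). At 48 h it was above background on 0 of the 3 sarin arrays.

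**Figure D4:**
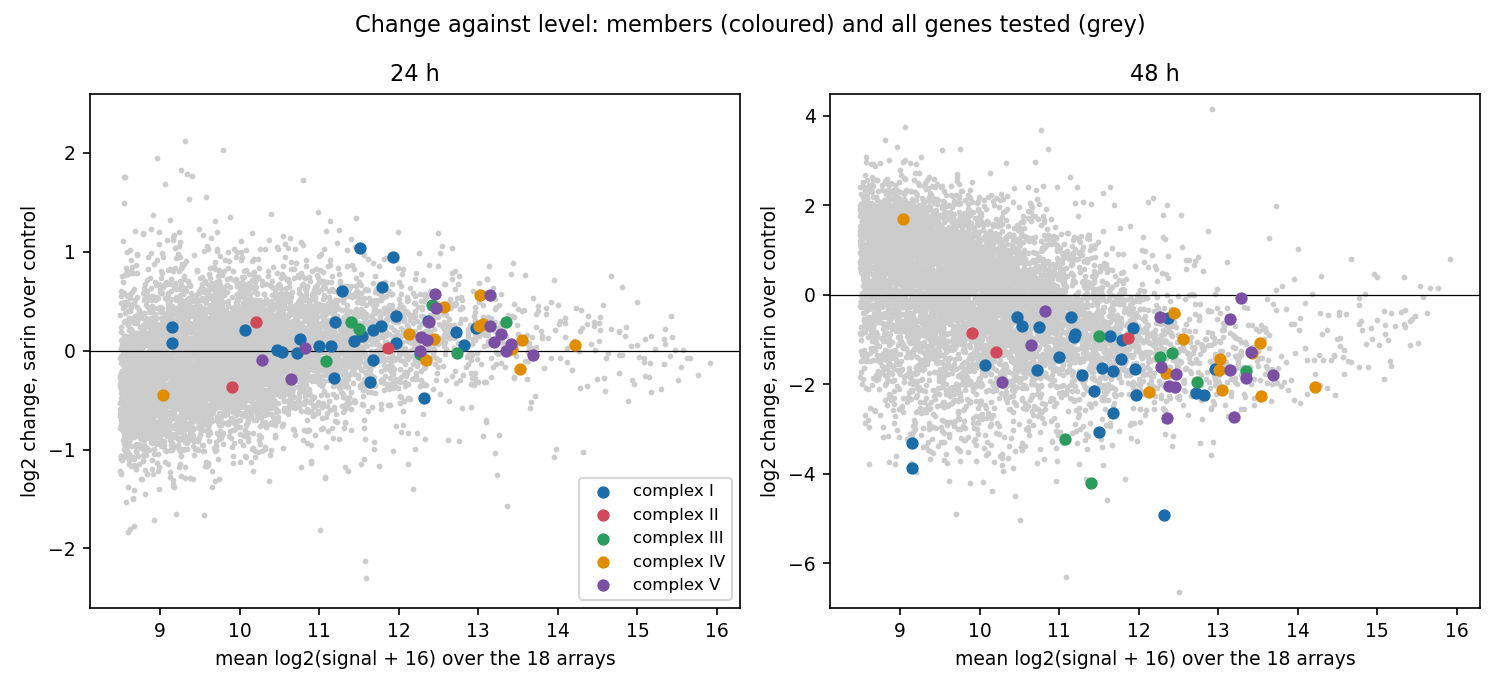
Log2 change of sarin over control (y axis) against mean log2(signal + 16) over the 18 arrays (x axis) at 24 h and 48 h, members coloured by complex and all genes tested in grey. Most members lie to the right, where most grey points are below 0 at 48 h. Further left lie COX6A2, above 0 but at -0.31 with arrays scaled to the spike-ins, and NDUFA7 and NDUFB7, below 0 where the median of all genes is 0.50.

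Of the members, 21 had more than 1 probe set, 54 sets in all. At 48 h, 21 of the 33 sets other than the brightest of their gene had its sign. Tested 1 by 1 with no level filter, 81 of the 100 probe sets were lower and 9 higher. The 9 included the sets of COX6A2 and COX7A1, and dim second sets of NDUFA2, NDUFA6, NDUFB8, SDHD, UQCRB, ATP5F1C and ATP5MC2, named here after their values were seen.

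NDUFA2, a complex I accessory subunit, shows the split. Its bright set was at 1135.7, 1397.5 and 1258.4 with sarin, against 3776.7, 4359.9 and 4220.2 without, a log2 change of -1.69 (adjusted p = 1.27e-09). Its dim set was at 1197, 1319.6 and 1038.6 with sarin, against 327.6, 254.2 and 382.7 without, a change of 1.84 (adjusted p = 0.000156). In neither set did the groups overlap.

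UQCRB had 2 bright sets, both lower (the second at -0.91), and a dim one at 1.07. The position of the sets along the transcript was not used here, and what part the background of the 48 h sarin arrays had in these values was not tested. With the mean of all probe sets of a gene, 56 members were lower and 1 higher.

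**Figure D5:**
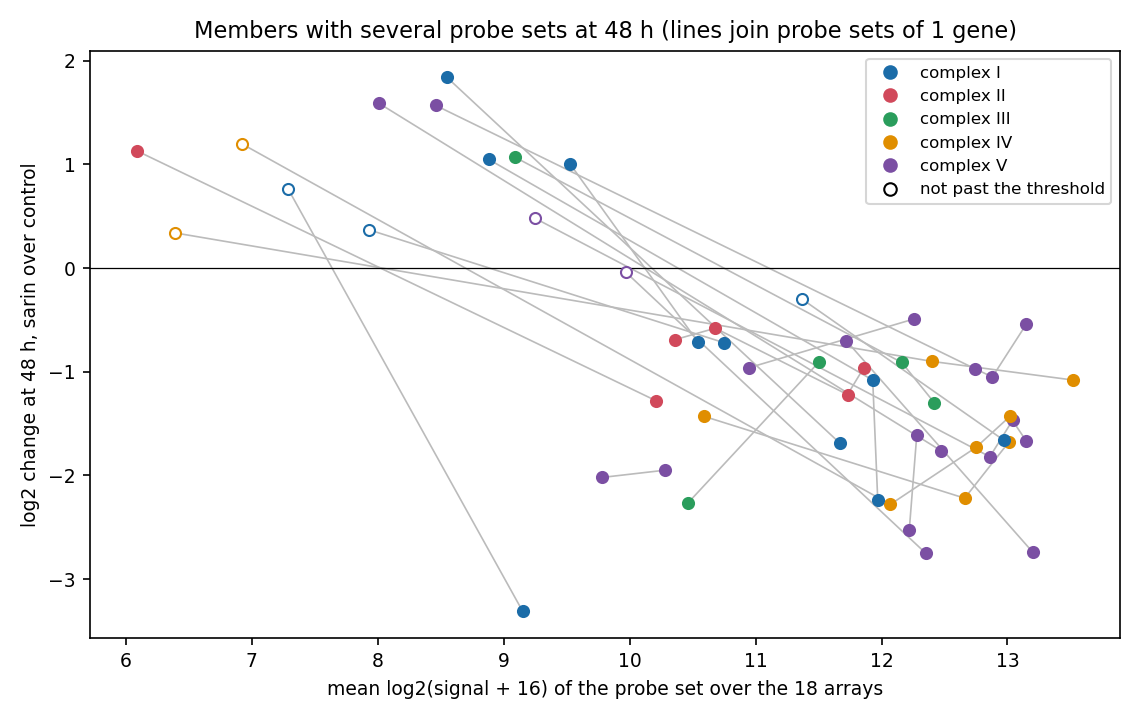
Log2 change at 48 h, sarin over control (y axis), against mean log2(signal + 16) over the 18 arrays (x axis) for the members with several probe sets; each point is a probe set, coloured by complex and filled where the adjusted p was under 0.05, and lines join the sets of 1 gene. The 7 sets called higher in these genes are dimmer sets, to the left of a brighter set of the same gene, as for NDUFA2, with -1.69 for its bright set and 1.84 for its dim one.

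Untreated cells were compared over time in the same fit. At 24 h against 3 h, 1 member was higher and 1 lower, with 3.57% of all genes higher and 2.12% lower. NDUFB5, an accessory subunit of complex I, was at 3480.9, 3029.6 and 2522.3 in untreated cells at 24 h, against 4857.1, 4258.1 and 5206.3 at 3 h, a log2 change of -0.67 ± 0.14 (adjusted p = 0.00913). ATP5IF1 was at 2104, 1809.5 and 2231.2 at 24 h, against 1595.8, 1586.8 and 1008.1 at 3 h, a change of 0.57 ± 0.17 (adjusted p = 0.0486) that was -0.22 (adjusted p = 0.562) with arrays scaled to the spike-ins. Leaving out control replicate 3 of 24 h gave 0 calls, control replicate 2 of 24 h or control replicate 3 of 3 h gave 1, and control replicate 2 of 3 h gave 6. The member median was -0.10, against 0.09 over all genes. Among the 718 brightest genes the median was -0.18, and over the 39 members there it was -0.12.

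At 48 h against 24 h, NDUFB5 was higher in untreated cells, at 4894, 4764.1 and 4791.2 at 48 h, a change of 0.69 ± 0.14 (adjusted p = 0.0264). It was the 1 member called, against 0.167% of all genes higher and 0.265% lower, and it did not pass in 5 of the 6 fits that left out 1 array, those without control replicate 2 or 3 of 24 h or any of the 48 h controls. The member median was 0.17, against -0.04 over all genes. A change above 0 was seen for 57 of 66 members, against 3222 of all 7178 genes. Among the 718 brightest genes 484 were above 0, with a median of 0.09. The 39 members there had 36 above 0 and a median of 0.18. At 48 h against 3 h, limma called 0 members, with 0.279% of all genes higher and 0.209% lower, 8 members and 905 genes in all had an unadjusted p under 0.05, and 2 were called without control replicate 2 of 3 h. These comparisons share control arrays with each other and with the sarin comparisons of the same time.

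The other genes of the pathway are given for 24 h beside all genes tested, of which 4.11% were higher and 4.56% lower. Of 28 assembly factors tested, 1 was higher, COA3, an assembly factor of complex IV, at 0.59 ± 0.14 (adjusted p = 0.0174). Of 21 genes of cytochrome c, coenzyme Q and carriers, COQ8A, needed for coenzyme Q synthesis, was higher at 0.81 ± 0.22 (adjusted p = 0.0309). UCP2, an inner membrane carrier, was lower at -0.70 ± 0.15 (adjusted p = 0.00667).

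Of 23 genes of the citric acid cycle and pyruvate dehydrogenase, PDHB, a subunit of the enzyme that feeds the cycle, was higher at 1.13 ± 0.20 (adjusted p = 0.00195). Its sarin arrays were at 4140.8 to 4461.4, against 1395.7 to 2908 on the control arrays. Of 17 regulators of mitochondrial biogenesis and mitochondrial transcription, 2 were higher. These were MYC at 1.36 ± 0.23 (adjusted p = 0.00141) and TWNK, the mitochondrial DNA helicase, at 0.83 ± 0.22 (adjusted p = 0.0244). NRF1, the factor whose letters were searched for above, was at -0.26 ± 0.24 (adjusted p = 0.511). The share of all genes higher with sarin at 24 h was 4.11%. In untreated cells at 24 h against 3 h, MYC was at -1.42 and PDHB at -0.99. In untreated cells at 48 h against 24 h, MYC was at 0.94 and PDHB at 0.47.

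At 48 h, when 37.8% of all genes were lower and 32.9% higher, 15 of the 28 assembly factors were lower and 5 higher, with a median of -0.55. For the carrier list 12 of 21 were lower and 3 higher (median -0.61), for the cycle 14 of 23 and 4 (median -0.76), and for the regulators 7 of 17 and 4 (median -0.46). SLC25A5, an ADP/ATP carrier that supplies the synthase, was at 2862.3 to 3629.1 with sarin, against 14539.8 to 16728.2 without, a change of -2.32 ± 0.15 (adjusted p = 2.5e-10). CYCS, cytochrome c itself, was at -1.65 ± 0.18 (adjusted p = 2.37e-07). SSBP1, which binds single-stranded mitochondrial DNA, was at -2.25 ± 0.14 (adjusted p = 8.29e-11), while ESRRA, a nuclear receptor that acts on genes of this system, was at 1.17 ± 0.16 (adjusted p = 3.95e-06).

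Markers of the cell forms of the line moved beside these results. Of 9 substrate-adherent markers tested, 4 (COL4A1, THBS1, LGALS1 and S100A10) were lower and 0 higher with sarin at 24 h, and the summed signal of the 11 with a probe set was 35846 to 37385, against 56292 to 58656 in controls. At 48 h it was 22703 to 25368 with sarin, against 57600 to 76688 in controls, while 3 markers were higher and 3 lower, with a median log2 change of 0.01. The summed signal of 11 noradrenergic markers was 113275 to 114955 with sarin at 24 h, against 99978 to 111651 in controls, and 50212 to 60398 with sarin at 48 h, against 95624 to 100011. Of the 10 noradrenergic markers tested, 2 were higher and 2 lower at 24 h, and 0 were higher and 6 lower at 48 h. Over all genes 4.11% were higher and 4.56% lower at 24 h, and 32.9% and 37.8% at 48 h. The 3 glial markers with a probe set summed to 281 to 425 with sarin at 24 h, against 577 to 742 in controls, and to 932 to 1498 with sarin at 48 h, against 411 to 660, with a background limit per probe set of 410.7 to 443.2 on those sarin arrays. The part of the cell forms in the members' values was not tested.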

How the data were processed

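RNA of 18 SH-SY5Y samples was read on 1-colour Affymetrix arrays, 3 per group. The deposited values are intensity signals on a linear scale, 1 per probe set, made by the authors with MAS5, per the submitters' processing notes, whose version is not given in the sources used here. In the files, the mean without the top and bottom 2% was near 800 on every array (800.1 to 800.3), so a global change in RNA amount is scaled away. No arrays held identical values, and the number of arrays limits the precision.

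Probe sets with 1 gene symbol were kept, 1 per gene by highest mean, and log2(signal + 16) of the upper 60% by level (mean signal of about 344.7 or more, 7178 genes) was fitted with limma 3.58.1 in R 4.3.3 (lmFit and eBayes with a trend, 6 group means, 12 residual degrees of freedom), with Benjamini-Hochberg adjustment over all genes. Tables were made with Python 3.11.15, numpy 2.4.6 and pandas 2.3.3. A probe set was above background where it exceeded the 90th percentile of the 27 unspiked bacterial probe sets of its array.

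The members, pathway lists and marker lists were chosen with earlier results of these data known. Named genes are the called members (up to 12 per direction), the smallest p per complex and direction, core subunits and isoform families at every time, up to 8 per direction from differences of effects and untreated comparisons, and up to 4 called genes of each other list. Genes outside this rule were named after their values were seen. Alternatives covered pseudocount, level filter, quantile, median and spike-in scaling (18 probe sets), probe set choice, variance model, array weights, covariate, replicate block and left-out arrays. Testing every probe set separately was chosen after seeing the data. On simulated data with 200 of 7178 genes changed, the 24 h fit recovered 7.46% of changes of 0.5 on the log2 scale, 67.2% of changes of 1 and 100% of changes of 2, with 2.52% false calls.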

Additional observations from a re-analysis of the deposited data

Results flagged for a closer look

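The sarin effect at 48 h differed from those at 3 and 24 h in tests of the difference itself, with limma and Benjamini-Hochberg adjustment. Against 3 h, the difference was lower for 55 members and higher for 1, with 32.6% of all genes lower and 27.2% higher. It was lower for 71.7% of the 718 brightest genes and for 34 of the 39 members among them. On the log2 scale it was -3.36 for CYC1, -3.11 for ATP5PO, -2.83 for NDUFB6 and -3.44 for NDUFC1, which was above background on 1 of the 48 h sarin arrays. Against 24 h, it was lower for 59 members and higher for 1, with 33.2% of all genes lower and 30.5% higher. It was lower for 77.9% of the 718 brightest genes and for 37 of the 39 members among them. The values were -3.12 for CYC1, -2.85 for ATP5PO, -2.86 for NDUFB6 and -4.11 for NDUFC1. NDUFA13, UQCRC1, NDUFA7 and NDUFB7 were above background on 0 of the 48 h sarin arrays, so their fitted differences are not measured sizes and have no order. Those were -4.76, -4.55, -3.87 and -3.66 against 3 h, and -4.45, -4.50, -4.12 and -3.39 against 24 h, in the order of the genes named. COX6A2 was the 1 higher member, at 2.14 against 3 h and 2.16 against 24 h, which with arrays scaled to the spike-ins were 0.12 and 0.10 (adjusted p = 0.857 and 0.877). Both sets of values share the 48 h arrays, which also had the raised GAPDH ratio and background limit.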

How the results depend on the processing

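At 3 h 0 members were called in every alternative run, and at 48 h 57 to 66 were with 1 value per gene. At 24 h, against 6 members, the count was 2 with no level filter, 2 with quantile normalization, 2 without a trend, 0 with spike-in scaling, 21 with median-centred arrays, 13 with array weights, 11 with only the compared arrays and 10 without the 48 h sarin arrays, and leaving out 1 array gave 1 to 5. Over the called members at 24 h, 71 values kept their call, 55 lost it and 0 turned. For the difference of effects at 24 and 3 h, against 0, median-centring, array weights and the GAPDH covariate each gave 2, and leaving out 1 array gave 0 to 1. For untreated cells at 24 h against 3 h, against 2, no level filter, no trend and the replicate block each gave 1, spike-in scaling 46, median-centring 21, the mean of probe sets 4, array weights and the covariate 5 each, only the compared arrays 0, and leaving out 1 array 0 to 6. For 48 h against 3 h, against 0, spike-in scaling gave 36, array weights 3, the covariate 2, and leaving out 1 array 0 to 2. For 48 h against 24 h, against 1, quantile normalization, spike-in scaling, separate probe sets, no trend and only the compared arrays gave 0, array weights 4, the covariate 3, and leaving out 1 array 0 to 1. Among the named members called, the values that turned were COX6A2 at 48 h (-0.31, spike-in scaling), COX7A2L at 48 h (0.35, quantile normalization) and ATP5IF1 in untreated cells at 24 h against 3 h (-0.22, spike-in scaling); the cause was not tested. Over all 66 members, 1 was above 0 at 48 h, against 6 under quantile normalization and 0 with spike-in scaling. Same-numbered arrays did not deviate together (correlations of -0.181 to 0.0249), so the numbers were not taken as pairs. With the replicate block 0, 5 and 63 members were called with sarin at 3, 24 and 48 h.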
